A study of Caenorhabditis elegans with 35 samples.

Results

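W08D2.11 and D2023.15 are 2 noncoding RNA genes of Caenorhabditis elegans chosen by their high scaled counts in eak-7;akt-1 larvae, which are prone to dauer arrest. They were found by name among the 37555 loci of the deposited table, where each is the only name of 1 locus, and both were among the 1101 loci with enough signal to be tested. RNA of whole larvae was sequenced from 7 genotypes with 5 replicates each, 35 libraries in all. Larvae with a set-4 mutation were set-4(n4600);eak-7;akt-1 or set-4(dp268);eak-7;akt-1, called set-4(n4600) and set-4(dp268) from here on. The other strains with an added mutation were daf-16;eak-7;akt-1 (the daf-16 strain), eak-7;akt-1;daf-12 (the daf-12 strain) and eak-7;akt-1 dpy-21 (the dpy-21 strain). These 5 strains share the eak-7 and akt-1 mutations with the double mutant eak-7;akt-1, and wild type carried none of them. n4600 is a set-4 deletion, dp268 is predicted to replace a serine of the catalytic domain, and the daf-16 allele was mu86. Eggs were laid over 6 h at 20°C, and all larvae, wild type included, were then kept at 25°C for 24 h and were labelled L2/L2D, where L2D is the stage before dauer.

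Insulin-like signalling through AKT-1 keeps the transcription factor DAF-16/FoxO out of the nucleus, and EAK-7 acts in parallel with AKT-1, so that animals lacking both readily enter dauer, a stress-resistant larval stage with a cuticle of its own. The nuclear receptor DAF-12 is needed for dauer arrest, DPY-21 belongs to the dosage compensation machinery of the X chromosome, and SET-4 methylates histone H4. The study reports that set-4 and dpy-21 mutations each suppressed dauer arrest in eak-7;akt-1 hermaphrodites. The cuticle is built largely of collagens, whose genes are transcribed in waves at each molt, and the nematode genome also holds many short noncoding RNA genes whose products have no known function.

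Each gene lies opposite an exon of a cuticle collagen gene. In the Ensembl annotation of build WBcel235, W08D2.11 (locus XLOC_020376) is an ncRNA of 1 exon on the minus strand of chromosome IV, from 9822394 to 9822693, or 300 nt. All 300 nt lie opposite exon 2 of the collagen gene col-123, which runs from 9822114 to 9822901 on the plus strand, and within its coding part. The span also falls in an intron of catp-6, a gene for a cation-transporting ATPase on the same strand as W08D2.11. D2023.15 (locus XLOC_030677) is an ncRNA of 1 exon on the minus strand of chromosome V, from 11829587 to 11829736, or 150 nt. Of these, 149 nt lie opposite exon 1 of the collagen gene col-158, which runs from 11829582 to 11829735, and 141 nt lie opposite coding sequence. The drawing of each RNA against the exon on the other strand shows both arrangements beside those of 2 similar loci described later.

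**Figure D1:**
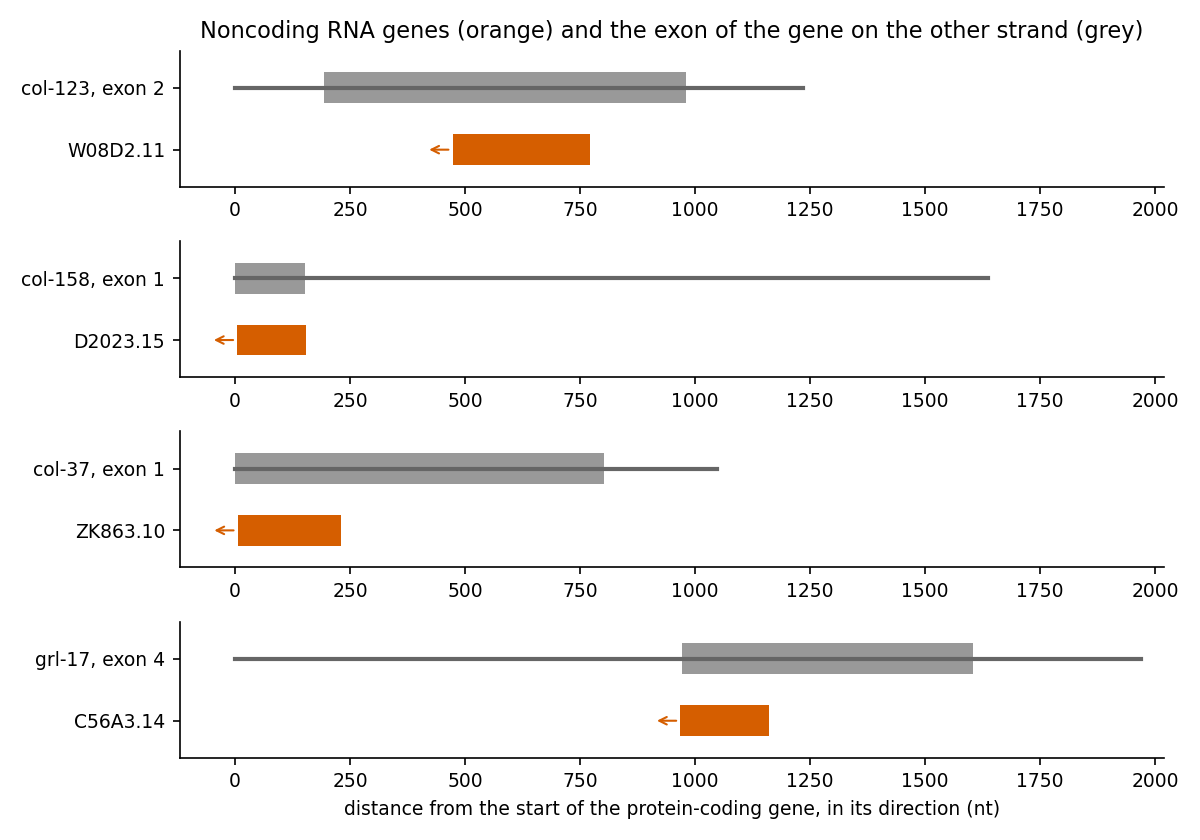
Position of 4 noncoding RNA genes (orange, with the arrow in the direction of transcription) relative to the protein-coding gene on the other strand (line) and the exon they overlap (grey), in nt from the start of the protein-coding gene. W08D2.11 lies within exon 2 of col-123, and D2023.15 covers nearly all of exon 1 of col-158.

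The sources do not say that reads were counted by strand, so fragments of either RNA cannot be told apart from fragments of the collagen transcript opposite it. col-123 and col-158 have loci of their own in the table, and both were listed at 0 in all 35 libraries. Tested loci leaned to short transcripts, with a median exon length of 604 nt among 410 tested loci of a single coding gene, against 1104 nt among all 11585 such loci. Coding loci with any fragment had a median of 1347 nt, and the collagen gene col-36, at 1254 nt, reached 876 fragments in a library. The part of length in detection was not tested. col-123 and col-158 have 1141 nt and 1215 nt of exons, and whether their listed 0 reflects low expression was not tested. The other annotated neighbours with a locus of their name were also near 0, which leaves out the higher-coordinate side of W08D2.11. catp-6 had 3 fragments over all libraries, while W08D2.12, an ncRNA gene 507 nt away on the lower-coordinate side of W08D2.11, was listed at 0 throughout. D2023.6 and nphp-4, at 217 nt and 1461 nt on either side of D2023.15, were listed at 0 as well.

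The deposited values are scaled counts, that is fragments per locus divided by a size factor of the library, and 1 fragment was worth between 0.669 and 1.43 scaled counts. Libraries held between 34193 and 88068 fragments, with a median of 56780. On the first principal component of the tested loci, which held 40.2% of the variance, 9 libraries stood apart from the other 26. They included replicate 7 of set-4(n4600), replicates 6 and 10 of eak-7;akt-1 and replicates 7 and 10 of wild type, and results that rest on them are also given without them. The loci of set-4, daf-12, dpy-21, daf-16, akt-1 and eak-7 had at most 3 fragments in any library, so the genotypes could not be checked by the targeted genes. In bulk RNA of whole larvae, fewer cells that express a gene and less RNA per cell cannot be told apart.

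W08D2.11 was present in both set-4 strains and in eak-7;akt-1 and close to 0 in the other 4 genotypes. In the order of replicates 6, 7, 8, 9 and 10 it had 114, 1.70, 11.5, 274 and 198 scaled counts in set-4(n4600). In the same order it had 141, 42.5, 11.9, 107 and 43.3 scaled counts in set-4(dp268). The eak-7;akt-1 libraries had 133, 12.99, 20.9, 335 and 52.3 scaled counts. Within each of the 3 genotypes the values therefore ran over a wide range, and the ranges of the 3 genotypes overlapped. Replicate 7 of set-4(n4600) held 2 fragments and was itself under the floor of 3 fragments used below.

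The remaining genotypes were at or under the floor, taken as 3 fragments in each library. The daf-16 strain had 3 fragments of W08D2.11 over its 5 libraries, the daf-12 strain had 2, the dpy-21 strain had 3 and wild type had 1. The values above 0 were 2.12 and 0.854 scaled counts in the daf-16 strain, 0.702 and 0.958 in the daf-12 strain, 3.30 in the dpy-21 strain and 1.05 in wild type, and every other library was at 0. Since both sides were at the floor, no fold is given among these 4 genotypes.

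D2023.15 followed the same pattern at slightly higher values. For replicates 6, 7, 8, 9 and 10 it had 164, 9.37, 19.2, 318 and 241 scaled counts in set-4(n4600). The set-4(dp268) libraries had 211, 60.9, 16.23, 110 and 47.5 scaled counts. The eak-7;akt-1 libraries had 170, 15.2, 27.8, 417 and 109 scaled counts. Replicates 6 and 9 were high and replicate 8 was low in all 3 genotypes, as they were for W08D2.11.

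In the other genotypes D2023.15 was low but not always at the floor. The daf-16 strain libraries had 2.81, 0, 1.71, 4.49 and 4.40 scaled counts for replicates 6 to 10, and 2 of them passed the floor with 5 fragments each. The total over 5 libraries was 14 fragments in the daf-16 strain, 4 in the daf-12 strain, 7 in the dpy-21 strain and 6 in wild type. No library of the daf-12 strain, the dpy-21 strain or wild type passed 3 fragments, and their highest values were 2.112 scaled counts in the daf-12 strain, 2.45 in the dpy-21 strain and 2.51 in wild type.

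**Figure D2:**
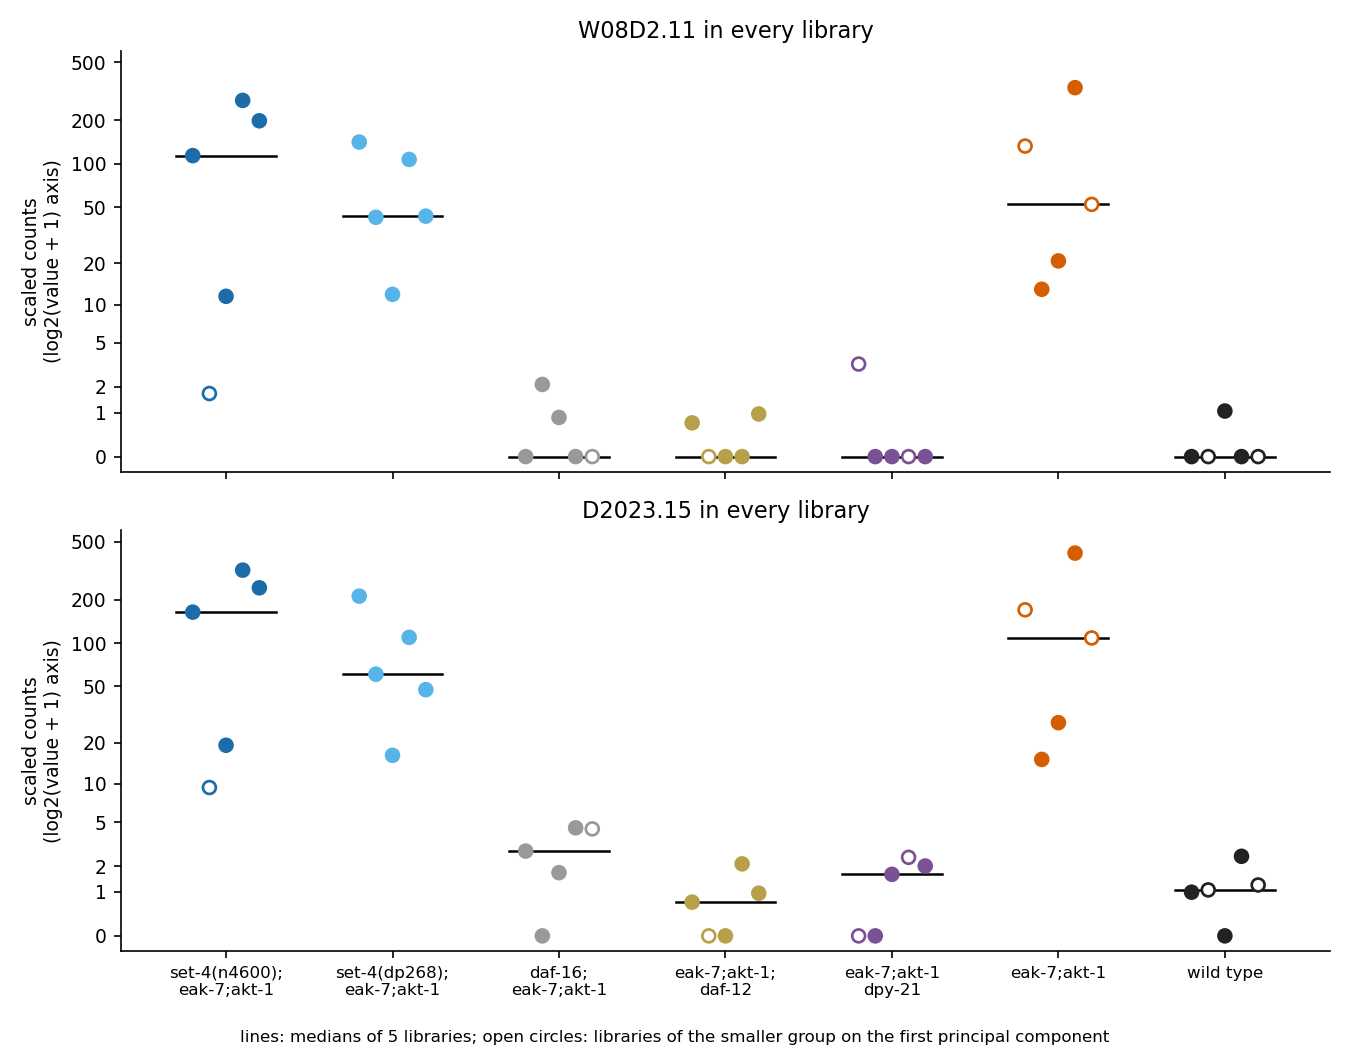
Scaled counts of W08D2.11 (top) and D2023.15 (bottom) in each library of the 7 genotypes, on a log2(value + 1) axis, with medians as lines and the 9 libraries that stand apart on the first principal component as open circles. Both genes spread from about 10 to over 100 scaled counts in the set-4 strains and eak-7;akt-1, apart from replicate 7 of set-4(n4600) with 1.70 scaled counts of W08D2.11, and stay under 5 in the other 4 genotypes.

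W08D2.11 averaged 120 ± 118 scaled counts in set-4(n4600), 69.3 ± 53.3 in set-4(dp268) and 111 ± 134 in eak-7;akt-1 (SD, n = 5 each). D2023.15 averaged 150 ± 136 scaled counts in set-4(n4600), 89.1 ± 76.01 in set-4(dp268) and 148 ± 163 in eak-7;akt-1 (SD, n = 5 each). By mean both genes had the order set-4(n4600), eak-7;akt-1, set-4(dp268), but the SD was close to the mean in each, and no pair of neighbours in this order differed beyond its spread. The lower genotypes had D2023.15 at 2.68 ± 1.90 in the daf-16 strain, 1.22 ± 1.15 in the dpy-21 strain and 0.754 ± 0.870 in the daf-12 strain, against 1.16 ± 0.894 in wild type (SD, n = 5 each), and none of the first 3 differed from wild type beyond the spread. By median, W08D2.11 had 114 scaled counts in set-4(n4600), 43.3 in set-4(dp268) and 52.3 in eak-7;akt-1, the same order as by mean.

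Per nt of annotated length, 150 nt against 300 nt, D2023.15 had the higher level of the pair. Division by annotated length makes no allowance for fragment size, so the abundance of the 2 RNAs was not compared. Its mean level was 100.2 scaled counts per 100 nt in set-4(n4600), 59.4 in set-4(dp268) and 98.4 in eak-7;akt-1. The mean level of W08D2.11 was 39.9 scaled counts per 100 nt in set-4(n4600), 23.1 in set-4(dp268) and 36.9 in eak-7;akt-1. In the 14 libraries where both genes passed the floor, D2023.15 had 1.02 to 2.08 times the scaled counts of W08D2.11, with a median of 1.31. Per nt of annotated length the ratio was 2.04 to 4.15, with a median of 2.61. In these 14 libraries the ratio varied far less than either gene did. W08D2.11 alone differed 25.8-fold between the highest and lowest eak-7;akt-1 library. The library left out, replicate 7 of set-4(n4600), had 9.37 scaled counts of D2023.15 and 1.70 of W08D2.11, a ratio above the range given.

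The contrast with eak-7;akt-1 chose the 2 genes and is given as a description, with no test. Every library of the daf-16, daf-12 and dpy-21 strains was below every eak-7;akt-1 library for both genes. Of all tested loci, 6.09%, 6.27% and 7.63% lay wholly below eak-7;akt-1 in these 3 strains. From summed fragments over summed depth, W08D2.11 was 196-fold lower in the daf-16 strain than in eak-7;akt-1 (95% counting interval 66.8 to 955). It was 304-fold lower in the daf-12 strain (83.6 to 2513) and 189-fold lower in the dpy-21 strain (64.3 to 919).

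D2023.15 was 56.2-fold lower in the daf-16 strain than in eak-7;akt-1 (33.2 to 103), 203-fold lower in the daf-12 strain (78.8 to 746) and 108-fold lower in the dpy-21 strain (52.2 to 269.8). These exact intervals cover counting error only and not the spread between replicates. Against wild type, where 7.18% of tested loci lay wholly lower than in eak-7;akt-1, W08D2.11 was 556-fold higher in eak-7;akt-1 (99.4 to 22010) and D2023.15 124-fold higher (56.6 to 338). The interval of W08D2.11 rests on a single fragment in wild type.

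With a set-4 mutation both genes overlapped the range of eak-7;akt-1, although replicates 7 and 8 of set-4(n4600) and replicate 8 of set-4(dp268) lay below its lowest library for W08D2.11, and replicate 7 of set-4(n4600) for D2023.15. The ratio of mean scaled counts to those of eak-7;akt-1 was 1.08 for W08D2.11 and 1.02 for D2023.15 in set-4(n4600), and 0.626 and 0.603 in set-4(dp268). On the log2(scaled count + 1) scale, the mean differences from eak-7;akt-1 were -0.36 and -0.09 in set-4(n4600) and -0.19 and -0.32 in set-4(dp268). Without the 9 libraries that stand apart they were 1.01 and 1.13 in set-4(n4600) and 0.15 and 0.18 in set-4(dp268). The sign of these small differences thus turned with the choice of libraries.

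Both set-4 strains were compared with wild type in limma on log2(scaled count + 1), in a fit over all 35 libraries, where a call needed a fold change of at least 1.5 and a Benjamini-Hochberg adjusted p below 0.05. The wild type libraries are among those on which the genes were chosen, and the levels in the set-4 strains were known, so these tests are not independent evidence. W08D2.11 was higher than in wild type in set-4(n4600), with a log2 difference of 5.33 (SE 0.90, adjusted p = 6.25e-05 in limma). D2023.15 was higher in set-4(n4600) by 5.26 (SE 0.83, adjusted p = 2.44e-05 in limma). In this comparison 7.08% of tested loci were called higher, and only 1 tested locus had a larger log2 difference than both genes.

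In set-4(dp268) the log2 difference from wild type was 5.50 for W08D2.11 (SE 0.90, adjusted p = 3.79e-05 in limma) and 5.03 for D2023.15 (SE 0.83, adjusted p = 4.20e-05 in limma), where 8.17% of tested loci were called higher. All 5 libraries of either set-4 strain lay above all 5 of wild type for both genes, as did 4.72% of tested loci for set-4(n4600) and 7.99% for set-4(dp268). The narrowest gap was 1.70 scaled counts of W08D2.11 in replicate 7 of set-4(n4600), or 2 fragments, against 1.05 in the highest wild type library, or 1 fragment. Summed fragments gave ratios to wild type of 602 for W08D2.11 (95% counting interval 108 to 23817) and 125 for D2023.15 (57.2 to 342) in set-4(n4600). In set-4(dp268) they were 290 (51.6 to 11479) and 61.7 (28.1 to 169).

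The 2 libraries at the ends of the range moved these values without ending the calls. Without replicate 7 of set-4(n4600), the log2 differences of that strain from wild type were 6.35 for W08D2.11 and 5.98 for D2023.15. Without its replicate 9 the difference of W08D2.11 was 4.68. Among the 26 libraries that held together on the first principal component, set-4(n4600) differed from wild type by 6.21 for W08D2.11 and 6.05 for D2023.15, and set-4(dp268) by 5.36 and 5.10.

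The 2 set-4 alleles did not differ detectably. W08D2.11 differed between set-4(dp268) and set-4(n4600) by 0.17 on the log2 scale (95% interval -1.67 to 2.01, adjusted p = 0.980 in limma). D2023.15 differed by -0.23 (95% interval -1.93 to 1.48, adjusted p = 0.964 in limma). The intervals reach from 0.263-fold to 4.04-fold, and 0.182% of tested loci were called between the alleles in either direction. These intervals rest on a spread shared by all 7 genotypes, including those near 0 for both genes. With only the 2 alleles in the fit, the SE was 1.23 for W08D2.11 and 1.01 for D2023.15, beside 0.90 and 0.83. Differences of more than 4-fold could thus have been missed. The difference of W08D2.11 turned to -0.85 without replicate 7 of set-4(n4600) and to -0.93 in edgeR, and neither was called.

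Among the genotypes with little of either RNA, only D2023.15 in the daf-16 strain passed the floor in any library. Its log2 difference from wild type was 0.65 (SE 0.83, 95% interval -1.05 to 2.35, adjusted p = 0.921 in limma), in a comparison with 0.817% of tested loci called in either direction. The ratio of summed fragments was 2.204 (95% counting interval 0.796 to 7.00). Without the 9 libraries that stand apart on the first principal component, the log2 difference was 0.52 (SE 0.93) and was not called.

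The spread within the 3 genotypes was shared by the 2 genes. Deviations of log2(scaled count + 1) from the genotype means correlated over the 15 libraries of both set-4 strains and eak-7;akt-1, with Pearson r = 0.981 and Spearman rho = 0.989 (permutation test within genotypes, two-sided, p = 1e-05 for each, the smallest that 100000 resamples can give). This was the only relation tested, and since the spread of these libraries was known when the pair was chosen, its p-values are not independent evidence. Without replicates 7 and 9 of set-4(n4600), the libraries farthest from the median of W08D2.11, r was 0.988 and rho 0.978 (permutation p = 2.0e-05 for each). Within the 12 of these libraries that belong to the larger group on the first principal component r was 0.994, and in the 10 set-4 libraries it was 0.986.

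High and low libraries carried partly the same replicate numbers in different genotypes. Replicate 6 had 114 to 141 scaled counts of W08D2.11 in the 3 genotypes and replicate 9 had 107 to 335, while replicate 8 had 11.5 to 20.9. Replicate 7 was low in set-4(n4600) and eak-7;akt-1 but had 42.5 scaled counts in set-4(dp268). The labels do not say what a number marks, nor whether replicates were separate cultures. The study's methods call them experimental replicates, and the legend of its transcriptome figure calls them biological replicate samples. The p-values here measure the spread between libraries, which may still be partly technical. In limma that spread was shared by all 7 genotypes, including those near 0 for both genes. With genotype and replicate number means both removed, r between the 2 genes was 0.928 (permutation p = 4.0e-05). This permutation was made within genotypes and did not keep replicate numbers, so its p-value is only approximate. Like the others for this pair, it is not independent evidence. The plot of values by replicate number shows the coincidence, which was not tested.

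**Figure D3:**
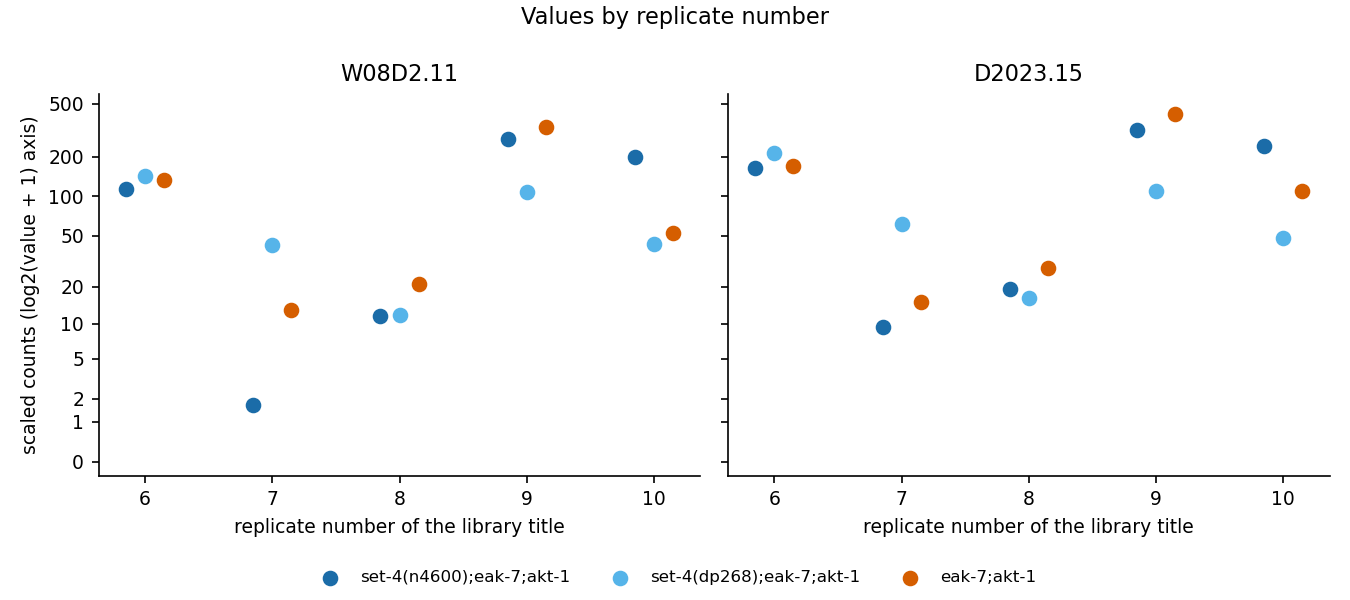
Scaled counts of W08D2.11 (left) and D2023.15 (right) in set-4(n4600), set-4(dp268) and eak-7;akt-1, by the replicate number of the library, on a log2(value + 1) axis with 1 point per library. Replicate 8 lies between 11.5 and 27.8 scaled counts for both genes in all 3 genotypes, and replicates 6 and 9 lie above 100.

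**Figure D4:**
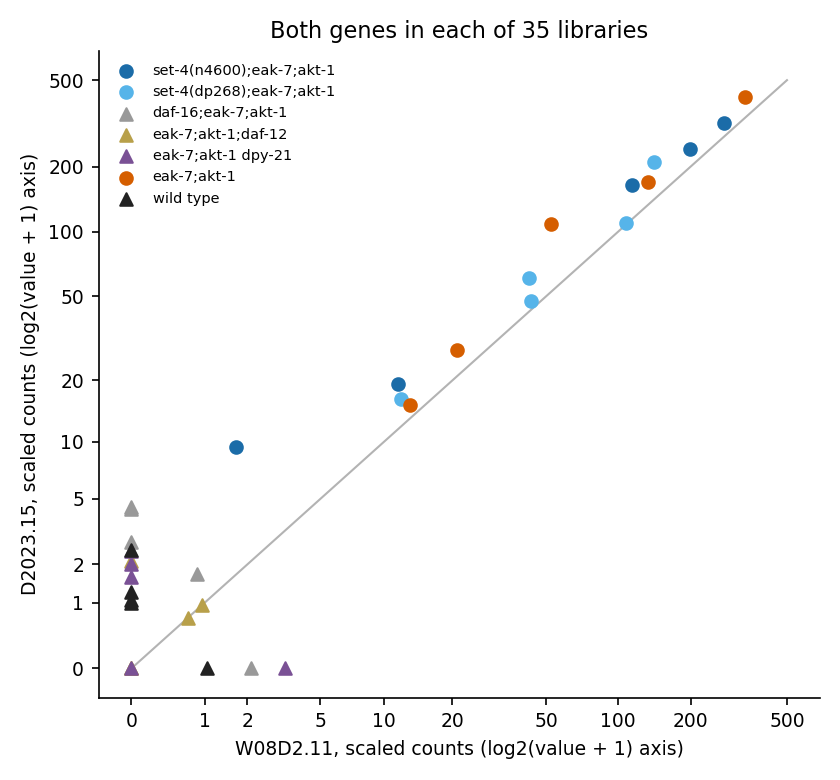
Scaled counts of D2023.15 against W08D2.11 in all 35 libraries on log2(value + 1) axes, with circles for both set-4 strains and eak-7;akt-1, triangles for the other 4 genotypes and a line of equal values. The 15 circles run from 1.70 to 335 scaled counts of W08D2.11 and all lie above the line, and the 20 triangles stay near the origin.

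The libraries that stand apart were not all at one end of these levels. In the 3 libraries of these genotypes that stand apart, W08D2.11 had 1.70, 52.3 and 133 scaled counts, against 11.5 to 335 scaled counts in the other 12, so that 1 of the 3 was the lowest of all 15 and the others lay within the range.

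The loci most like the pair included a cuticle collagen gene and 2 further RNAs opposite an exon of a coding gene. Likeness was the Pearson r of log2(scaled count + 1) over all 35 libraries, which share genotype and scaling, and is a description. For W08D2.11 the 5 most alike of the other 1100 tested loci were D2023.15 (r = 0.942), the cuticle collagen gene col-36 (0.928), ZK863.10 (0.922), the locus of dmd-10 and dmd-11 (0.903), which encode DM-domain proteins, and C56A3.14 (0.893). The same loci were the most alike for D2023.15, with r between 0.896 and 0.942, and the median over tested loci was 0.127 for W08D2.11 and 0.124 for D2023.15. dmd-11 is not in the annotation used here, and the span of dmd-10 also holds short ncRNA genes on its strand, such as C34D1.6. ZK863.10 is an ncRNA of 225 nt on chromosome V, from 12167523 to 12167747 on the plus strand, and lies wholly opposite exon 1 of the collagen gene col-37. C56A3.14 is an ncRNA of 194 nt on chromosome V, from 13562780 to 13562973 on the plus strand, and 190 nt of it lie opposite exon 4 of grl-17, a gene of the ground-like, hedgehog-related family.

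ZK863.10 was high in the same genotypes as the pair. For replicates 6, 7, 8, 9 and 10 it had 57.02, 0, 0, 155 and 82.7 scaled counts in set-4(n4600). It had 48.8, 35.6, 0, 28.9 and 29.6 scaled counts in set-4(dp268), and 77.1, 0, 26.7, 302 and 73.1 in eak-7;akt-1. In the other 4 genotypes it had a single fragment, in the dpy-21 strain. The libraries in which ZK863.10 was listed at 0 were those with 1.70 to 12.99 scaled counts of W08D2.11, the lowest of the 15.

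col-37, opposite ZK863.10, had at most 8 fragments in a library and was above 0 only in both set-4 strains and eak-7;akt-1, with means of 1.55, 1.58 and 3.24 scaled counts in set-4(n4600), set-4(dp268) and eak-7;akt-1. grl-17 was listed at 0 throughout. C56A3.14 averaged 15.4 scaled counts in set-4(n4600), 4.15 in set-4(dp268) and 16.24 in eak-7;akt-1, and was at 0 in all wild type libraries. These loci were picked for a profile like that of the pair, so their differences between genotypes are a description, with no test.

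col-36 reached the highest values of these loci but parted from the pair in eak-7;akt-1. It had 354, 0, 44.8, 577 and 507 scaled counts in set-4(n4600) for replicates 6 to 10, and 473, 72.4, 34.6, 247 and 117 in set-4(dp268). In eak-7;akt-1 it had 9.99, 44.4, 84.6, 833 and 6.91 scaled counts. Replicates 6 and 10, with 133 and 52.3 scaled counts of W08D2.11, thus had the least col-36 of their genotype, and both belong to the 9 libraries that stand apart. Its highest library in the other 4 genotypes had 2 fragments.

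Ranked by deviations within genotypes over the 15 libraries, the loci most like W08D2.11 were D2023.15 (r = 0.981), ZK355.8 (0.953), C56A3.14 (0.917), ZK863.10 (0.905) and the locus of cnc-9 and gst-41 (0.904), which encode a caenacin antimicrobial peptide and a glutathione S-transferase. The same loci in the same order were most like D2023.15, with r between 0.927 and 0.981, and the median of r over tested loci was 0.0366 for W08D2.11 and 0.0200 for D2023.15. ZK355.8, a protein-coding gene, had 16.9 ± 15.02 scaled counts in set-4(n4600), 15.4 ± 11.5 in set-4(dp268), 24.9 ± 23.4 in eak-7;akt-1, against 0.956 ± 0.601 in wild type (SD, n = 5 each). The locus of cnc-9 and gst-41 had at most 27 fragments in a library.

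**Figure D5:**
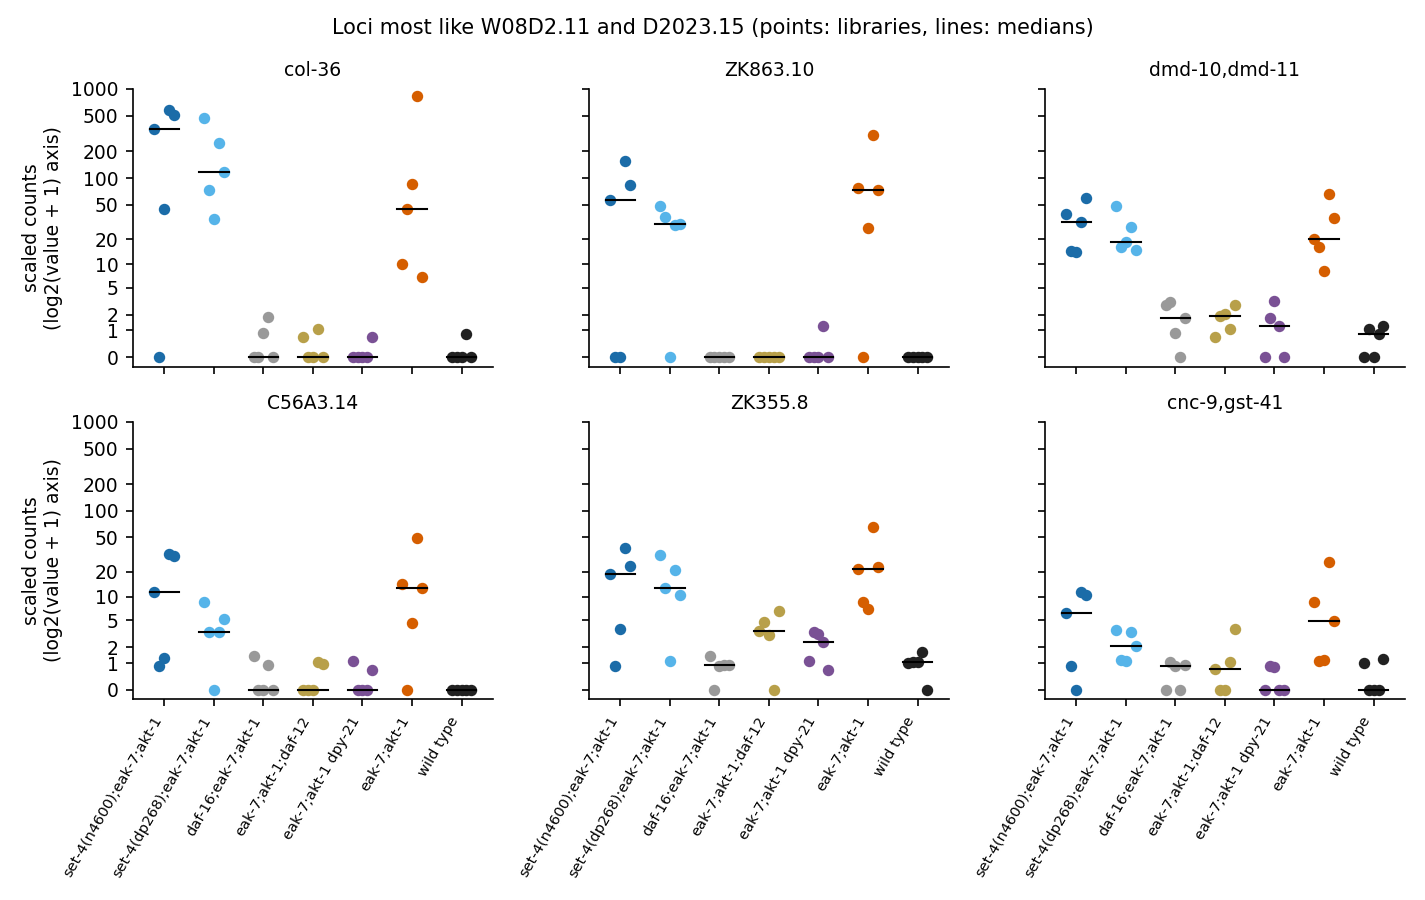
Scaled counts of the 6 loci most like W08D2.11 and D2023.15 in each library of the 7 genotypes, on a log2(value + 1) axis, with medians as lines. All 6 have their highest means in the set-4 strains and eak-7;akt-1, where col-36 reaches 833 scaled counts and the locus of cnc-9 and gst-41 reaches 25.7.

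Few other RNAs of this kind were measured. The table names 6327 loci of a single ncRNA gene, of which 674 had a fragment in some library and 13, or 0.205%, passed the filter, against 2.93% of all loci. Of the 643 that lie opposite an exon of a coding gene 10 passed, and of the other 5684 only 3 did. Without strand, fragments at these 10 cannot be told apart from those of the coding transcript. Of the 21 that lie opposite an exon of a collagen gene, a group formed after the position of the pair had been seen, 12 had a fragment and 4 passed the filter. Besides W08D2.11, D2023.15 and ZK863.10 the fourth was F12F6.17, an ncRNA of 219 nt wholly opposite col-128, whose highest mean was in the daf-12 strain. F12F6.17 had 1.87 ± 2.93 scaled counts in set-4(n4600), 0.904 ± 1.502 in set-4(dp268), 7.20 ± 3.06 in the daf-12 strain, 1.08 ± 0.702 in eak-7;akt-1, against 4.61 ± 3.29 in wild type (SD, n = 5 each). None of the other 17 had more than 1 fragment in any library.

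Some genes tied to dauer and DAF-16 were higher in the set-4 strains than in wild type. Of 32 such genes, listed with earlier results of these data known, 6 loci were tested, and 2 were called higher than in wild type in set-4(n4600) and 4 in set-4(dp268), with none lower, against 7.08% and 8.17% of tested loci called higher. The median log2 difference was 2.54 and 4.08, beside 0.17 and 0.26 over all tested loci. col-36 rose in both strains (log2 differences 6.25 and 6.84 for the n4600 and dp268 alleles, limma, adjusted p = 0.000188 and 4.96e-05), as did the metallothionein gene mtl-2 (0.62 and 0.95). ins-35, an insulin-like peptide gene, and the metallothionein gene mtl-1 rose in set-4(dp268) (5.00 and 4.99), and had differences of 3.76 and 3.35 in set-4(n4600) with adjusted p-values of 0.135 and 0.111 in limma. The insulin-like peptide genes daf-28 and ins-7 were not called, with differences of 1.74 and -0.12 in set-4(n4600) and 3.16 and -0.56 in set-4(dp268). col-36 is also among the loci picked for their likeness to the pair, so its calls are not independent of that choice.

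The summed level of the dauer list ran from 131 to 1273 scaled counts in set-4(n4600), from 737 to 1308 in set-4(dp268) and from 126 to 1654 in eak-7;akt-1, against 77.6 to 170 in wild type. A few loci weighed most in this sum, with means over all libraries of 180 for ins-35, 106 for mtl-2 and 97.5 for col-36. In replicate 9, col-36 alone gave 577 of 1223 scaled counts in set-4(n4600) and 833 of 1654 in eak-7;akt-1. The 3 libraries of these genotypes that stand apart on the first principal component lay within the wild type range, with 131 scaled counts in replicate 7 of set-4(n4600) and 126 and 161 in replicates 6 and 10 of eak-7;akt-1. Without them the lowest library had 644 scaled counts. In the same 2 eak-7;akt-1 libraries W08D2.11 had 133 and 52.3 scaled counts, above every wild type library.

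Molting and cuticle genes moved the other way. Of 36 such genes 5 loci were tested, of which 3 were called lower than in wild type in set-4(n4600) and 4 in set-4(dp268), with none higher, against 4.90% and 5.54% of tested loci called lower. The collagen genes dpy-5 and rol-6 and the locus of sqt-3 fell in both strains, and dpy-5, with 6.65 ± 7.16 scaled counts for the n4600 allele and 2.31 ± 1.46 for dp268 against 50.2 ± 6.86 in wild type (SD, n = 5 each), was the most abundant. The summed level of the list ran from 10.2 to 39.4 scaled counts in set-4(n4600), from 4.33 to 19.6 in set-4(dp268) and from 3.25 to 18.1 in eak-7;akt-1. It ran from 36.5 to 120 in the daf-16 strain, from 79.7 to 141 in the daf-12 strain, from 23.4 to 58.3 in the dpy-21 strain and from 70.2 to 96.2 in wild type. The list was thus lowest in the genotypes where W08D2.11 and D2023.15 were high, and the part of a difference in stage or molt in their levels was not tested.

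Markers of adults were nearly absent. Of 40 adult yolk and sperm genes, 38 were at 0 in every library, and their summed level did not pass 1.40 scaled counts. Intestinal markers were present in all genotypes, with median summed levels of 639 scaled counts in set-4(n4600), 784 in set-4(dp268), 508 in eak-7;akt-1, against 372 in wild type, and mtl-2 was the only one of 5 tested loci called in either set-4 strain. Median summed levels ran from 9.58 to 17.8 scaled counts over the 7 genotypes for body wall muscle markers and from 5.74 to 8.08 for neuronal markers, with no tested locus called in the set-4 strains. Hypodermal markers had medians from 0 in set-4(n4600) to 5.95 in wild type, and rol-6 was their only tested member. The part of these lists in the levels of the pair was not tested.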

How the data were processed

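The authors isolated polyA RNA from 100 ng of total RNA per sample and, per the labels and the study's methods, trimmed reads with cutadapt, aligned them with TopHat2 2.0.9 and Bowtie2 2.1.0 to WBcel235 and counted fragments per locus with Cuffdiff (2.1.1 in the submitters' processing notes, another version in the study's methods). They deposited a signal per locus and library, a fragment count divided by a size factor of the library (scaled counts). These values were whole multiples of a step for 100% of values in the library with the lowest share (tolerance 0.1 fragment), so fragments were recovered by division.

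A locus entered the tests if 5 or more libraries held 5 or more scaled counts of it, and log2(scaled count + 1) was compared in limma 3.58.1 (R 4.3.3, trend, Benjamini-Hochberg). A pseudocount understates the change of low genes. Exact 95% counting intervals came from scipy 1.17.1. Alternatives were pseudocounts of 0.5 and 5, filters, scalings, count models on the fragments (edgeR 4.0.16, DESeq2 1.42.0), a replicate block, and leaving out libraries. The test was checked on simulated counts. The 2 genes, the gene lists and the tests were chosen with earlier results of these data known. Named genes besides the pair were the 5 loci most like each gene over 35 libraries and within genotypes, the nearest neighbours, and the list members with the highest means, and F12F6.17, col-37 and grl-17 were added after their values were seen. Gene positions were matched by name in the WBcel235 annotation. Sequences were not analysed here.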

Additional observations from a re-analysis of the deposited data

Results flagged for a closer look

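In 2 groups a single library lay far from the other 4. For W08D2.11 in the dpy-21 strain, 1 library had 3.30 scaled counts, or 3 fragments, and 4 had 0. For W08D2.11 in wild type, 1 library had 1.05 scaled counts, or 1 fragment, and 4 had 0. Both values are at or under the floor of 3 fragments. With 4 values at 0 any single fragment would stand out in this way, so the rate of about 1 in 20 groups that chance gives for continuous values does not apply.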

How the results depend on the processing

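The calls for both genes in both set-4 strains against wild type held under all 12 other settings and without each library in turn. Both genes were chosen with these levels known. They reached the 5 scaled counts of the filter only in the set-4 strains and eak-7;akt-1. The calls are therefore not independent evidence under any setting. W08D2.11 ranged from 3.52 to 8.72 on the log2 scale and D2023.15 from 3.81 to 6.95 in set-4(n4600), with the lowest values at a pseudocount of 5 and the highest from DESeq2. In set-4(dp268) they ranged from 3.47 to 7.80 and from 3.54 to 6.08. With only set-4(n4600) and wild type in the fit, adjusted p in limma was 0.0170 for W08D2.11 (SE 1.14) and 0.00577 for D2023.15 (SE 0.92). With only set-4(dp268) and wild type, it was 8.77e-05 (SE 0.58) and 0.000224 (SE 0.60) in limma. The difference between the 2 alleles was not called under any setting, and that of W08D2.11 turned to -0.85 without replicate 7 of set-4(n4600) and to -0.93 in edgeR and -0.92 in DESeq2. With the replicate block, the log2 differences from wild type were 5.33 and 5.26 in set-4(n4600) (adjusted p = 2.89e-05 and 1.36e-07 in limma) and no call changed. The block lowered the SE of D2023.15 in this comparison from 0.83 to 0.58. Same-numbered libraries did not deviate together in all pairs (r across loci from -0.28 to 0.69 between set-4(n4600) and wild type). Differently numbered libraries of these genotypes had r from -0.61 to 0.58, and the numbers were not taken as pairs in the main fit. Of the described log2 differences involving eak-7;akt-1, 7 moved by more than the replicate SD at a pseudocount of 5, to sizes of 3.57 to 3.96, 5 in edgeR, to 7.13 to 8.29, and 6 in DESeq2, to 6.83 to 8.503. They kept their direction, apart from the small ones between the set-4 strains and eak-7;akt-1, which ran from -0.999 to 1.13. The correlation between the 2 genes ranged from 0.928 to 0.994 apart from 0.723 over all 35 libraries, which include those at the floor. Fragments carried no molecular identifiers, and totals of 1 to 14 fragments limit every fold against the low genotypes.

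Over all tested loci, edgeR called 136 loci in set-4(n4600) and 127 in set-4(dp268) against wild type, beside 132 and 151 in limma. In set-4(dp268) the split was 58 higher and 69 lower in edgeR and 54 higher and 71 lower after scaling to the total fragments of each library, beside 90 higher and 61 lower, and that scaling set the median log2 difference of all loci at 0.08 in place of 0.26. In set-4(n4600) 83 loci were called without a filter and 80 when only the strain and wild type entered the fit. Called loci between the alleles numbered 1 to 5 and those between the daf-16 strain and wild type 5 to 15 over the settings.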
